A study of Mus musculus with 8 samples.

Results

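Gene expression in the descending aorta of newborn fibulin-4 knockout mice was compared with that of wild-type mice, on 4 of the 8 arrays of a study that also measured the ascending aorta. The 4 arrays were chosen by their sample titles, and the values of 22180 genes on them are described here. Each array held RNA of 8 pooled descending segments, cut between the vena cava and the diaphragm on postnatal day 0, and there were 2 pools of wild-type and 2 pools of fibulin-4 knockout pups, all of strain C57BL/6. The knockout pups lacked the gene in the whole animal as far as the labels say, and no treatment was given. The values are log2 intensities, so a difference of 1 is a doubling, and wherever a pair of values is given the first is replicate 1 and the second replicate 2.

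The aortic wall is built of layers of smooth muscle cells between sheets of elastin. Fibulin-4 is a secreted glycoprotein that binds the elastin precursor and lysyl oxidase and is needed for the assembly and cross-linking of elastic fibres, and mice without it die around birth with a tortuous, dilated and fragile aorta. The descending segment carries blood along the spine and is embedded in fat, nerves and connective tissue.

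The knocked-out gene itself was not analysed here, and the genotypes were taken from the labels alone. The tissue label was checked against genes of the arterial wall: the elastin gene Eln had 11.99 and 11.88 in wild-type and 12.01 and 12.12 in knockout aorta, and the smooth muscle actin gene Acta2 had 12.2 and 12.1 in wild-type and 12.2 and 12.1 in knockout aorta, where the median gene of the 4 arrays had between 5.02 and 5.08. The spread of the values was narrower in wild-type replicate 2, with an interquartile range of 1.74 over genes against 2.19 to 2.28 on the other 3 arrays. The replicates had a Spearman correlation across genes of 0.929 in wild-type and 0.966 in knockout aorta. The pools also differed in sex-linked genes: Xist, transcribed from the inactive X chromosome, had 9.19 and 6.39 in wild-type and 8.55 and 7.28 in knockout aorta, and the Y-linked gene Eif2s3y had 5.59 and 5.71 in wild-type and 5.29 and 7.50 in knockout aorta. The part of the pools' sex in the results was not tested.

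Col8a1 rose in the knockout and was the only gene of 22180 (0.00451%) called by limma at a Benjamini-Hochberg adjusted p under 0.05. It encodes the alpha 1 chain of type VIII collagen, a short-chain network collagen made by vascular smooth muscle and endothelial cells during remodelling of the vessel wall. Its value was 5.82 and 4.78 in wild-type and 8.94 and 8.71 in knockout aorta. The knockout pools thus lay close together and far above both wild-type pools, which differed from each other by more than the knockout pools did. The log2 difference was 3.53 (SE 0.35, 95% confidence interval 2.74 to 4.31), or 11.5-fold, with a limma adjusted p = 0.0494. The adjusted p ranged from 0.0160 to 0.504 over the alternative settings and was above 0.05 in 12 of the 18 tried, while the difference lay between 3.01 and 4.05 in these 18. The partner chain gene Col8a2 had 4.07 and 4.73 in wild-type and 4.89 and 4.49 in knockout aorta, overlapping values with a log2 difference of 0.29 (SE 0.30, 95% confidence interval -0.38 to 0.97).

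The upstream sequence of Col8a1 is shown because it was the only called gene, and those of 3 further genes described below because neighbouring or functionally related genes stood apart in the same direction. The sequences are the 250 bases before the annotated start, from RefSeq on build GRCm38.p6, written 5′ to 3′ in the direction of transcription. Capitals mark, on either strand, the metal response core TGCACNC or TGCGCNC in Mt2 and Mt1, and the core GGAATG of TEAD factors, which carry mechanical signals to genes, in Ankrd1. The Col8a1 window (chr16:57754738-57754987, minus strand) was searched for GGAATG, for the AP-1 sequence (TGANTCA), for the TATA box (TATAAA) and for the CArG box of serum response factor, and held none of these letters. Among 32851 windows of the same length, 21.4% held a metal response core, 12.6% the TEAD core, 6.75% the AP-1 sequence, 12.4% the TATA box and 1.47% a CArG box. The other windows were chr8:94172368-94172617, plus strand for Mt2, chr8:94178839-94179088, plus strand for Mt1 and chr19:36119845-36120094, minus strand for Ankrd1.
Col8a1: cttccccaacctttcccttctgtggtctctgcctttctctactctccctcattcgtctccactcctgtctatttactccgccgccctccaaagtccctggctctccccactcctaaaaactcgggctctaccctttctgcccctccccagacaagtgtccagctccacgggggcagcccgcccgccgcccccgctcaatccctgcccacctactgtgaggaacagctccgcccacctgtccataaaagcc
Mt2: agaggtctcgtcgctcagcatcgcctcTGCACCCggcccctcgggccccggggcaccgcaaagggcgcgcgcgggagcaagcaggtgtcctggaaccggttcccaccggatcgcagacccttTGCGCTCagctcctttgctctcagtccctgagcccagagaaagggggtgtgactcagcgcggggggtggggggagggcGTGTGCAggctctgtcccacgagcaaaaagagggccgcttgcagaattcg
Mt1: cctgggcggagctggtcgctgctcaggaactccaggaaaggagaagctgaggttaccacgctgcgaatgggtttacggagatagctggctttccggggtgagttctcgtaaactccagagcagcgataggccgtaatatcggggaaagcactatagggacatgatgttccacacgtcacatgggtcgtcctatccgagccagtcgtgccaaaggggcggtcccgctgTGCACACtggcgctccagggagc
Ankrd1: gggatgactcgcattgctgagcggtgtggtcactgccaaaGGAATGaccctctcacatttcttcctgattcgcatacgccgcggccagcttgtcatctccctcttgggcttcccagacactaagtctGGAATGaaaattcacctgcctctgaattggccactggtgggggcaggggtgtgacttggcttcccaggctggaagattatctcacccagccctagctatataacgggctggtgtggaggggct

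With an unadjusted limma p under 0.05, 805 genes (3.63%) were higher and 514 (2.32%) lower in the knockout, 5.95% in all, and 53.7% of genes had a difference above 0. The split was 1091 to 301 after median centring of the arrays and 845 to 346 after quantile normalization. In 4784 genes (21.6%) both knockout arrays lay above both wild-type arrays, and in 3494 (15.8%) below. Bright genes differed more often upwards: with the genes cut by mean value into 5 groups of equal size, the median difference was -0.12 in the dimmest group, where 0.676% passed p under 0.05 upwards, and 0.23 in the brightest, where 8.79% did. Without wild-type replicate 2 the medians of the 5 groups of genes lay between 0.00 and 0.05. Most lists below hold bright genes, so the list medians are shown with all 4 arrays and without that array in the plot of list medians, and for most lists in the text. Each count of list genes past the threshold stands against the 3.63% of all genes higher and 2.32% lower. For lists of bright genes the 8.79% of the brightest group is the nearer share. The counts of list genes past the threshold also moved with single arrays, so 4 further counts follow most of them: without wild-type replicate 1, wild-type replicate 2, knockout replicate 1 and knockout replicate 2, in this order.

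**Figure D1:**
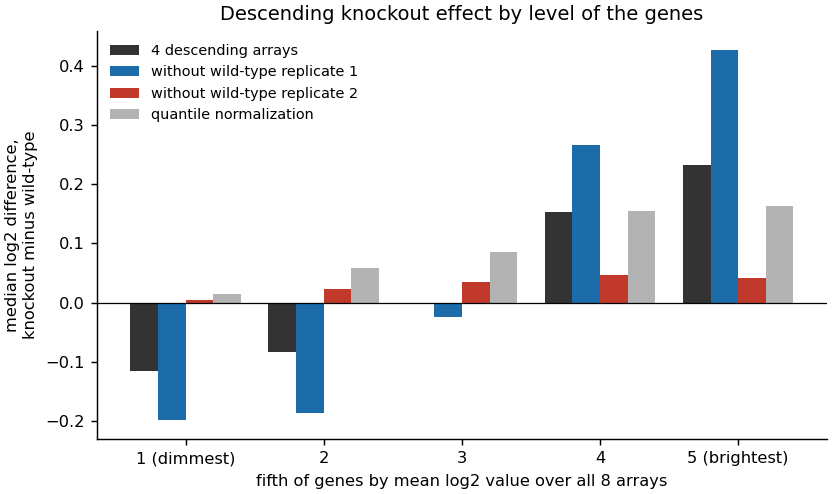
Median log2 difference between knockout and wild-type descending aorta (vertical axis) in 5 equal groups of genes ranked by their mean value (horizontal axis), as bars for 4 settings. With all 4 arrays the median runs from -0.12 to 0.23, and without wild-type replicate 2 it lies between 0.00 and 0.05 in each group.

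Serpina3n, a secreted inhibitor of serine proteases that is induced in inflammation, had 6.79 and 7.19 in wild-type and 9.15 and 9.70 in knockout aorta (log2 difference 2.44, SE 0.30, limma adjusted p = 0.103). Saa3, an acute phase serum amyloid protein, had 6.50 and 6.57 in wild-type and 8.33 and 9.51 in knockout aorta (2.39, SE 0.55). Igfbp2, a binding protein of insulin-like growth factors, had 7.48 and 7.003 in wild-type and 9.75 and 9.10 in knockout aorta (2.19, SE 0.43). In these genes the higher wild-type pool stayed more than 1 log2 unit below the lower knockout pool, but none reached an adjusted p under 0.05. The secretogranin gene Scg2, whose product is stored in secretory granules of neuroendocrine cells, had 5.77 and 5.58 in wild-type and 7.75 and 7.33 in knockout aorta (1.87, SE 0.30).

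The 12 largest positive differences also included Thbs1, Col11a1, Itga11, the cardiac muscle genes Myl7 and Tnnc1, and Zfp119b and Ift22. Ift22, which encodes a protein of intraflagellar transport, had 5.37 and 4.99 in wild-type and 5.97 and 8.04 in knockout aorta, so its difference of 1.82 (SE 0.60) rests mainly on knockout replicate 2. The zinc finger gene Zfp119b had 2.94 and 3.42 in wild-type and 5.04 and 5.64 in knockout aorta, values that were low on the wild-type arrays. The log2 differences of the 12 genes ranged from 1.76 to 3.53 with limma adjusted p from 0.0494 to 0.759. The 12 largest negative differences ranged from -3.35 to -1.65 with limma adjusted p from 0.244 to 0.785, so none of them was called. They included fat cell genes and Ly6g, described below, and genes of other kinds. Both rankings left out predicted, small RNA, olfactory and vomeronasal genes. Among those left out was the olfactory receptor gene Olfr507, with a log2 difference of -2.88 and a limma adjusted p of 0.0838. Zfp972, a zinc finger gene, had 6.60 and 8.19 in wild-type and 4.27 and 5.77 in knockout aorta (-2.38, SE 0.76). Klra9, Fthl17e and Speer4b had differences of -1.80, -1.67 and -1.65, with knockout values under 4 on both arrays.

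**Figure D2:**
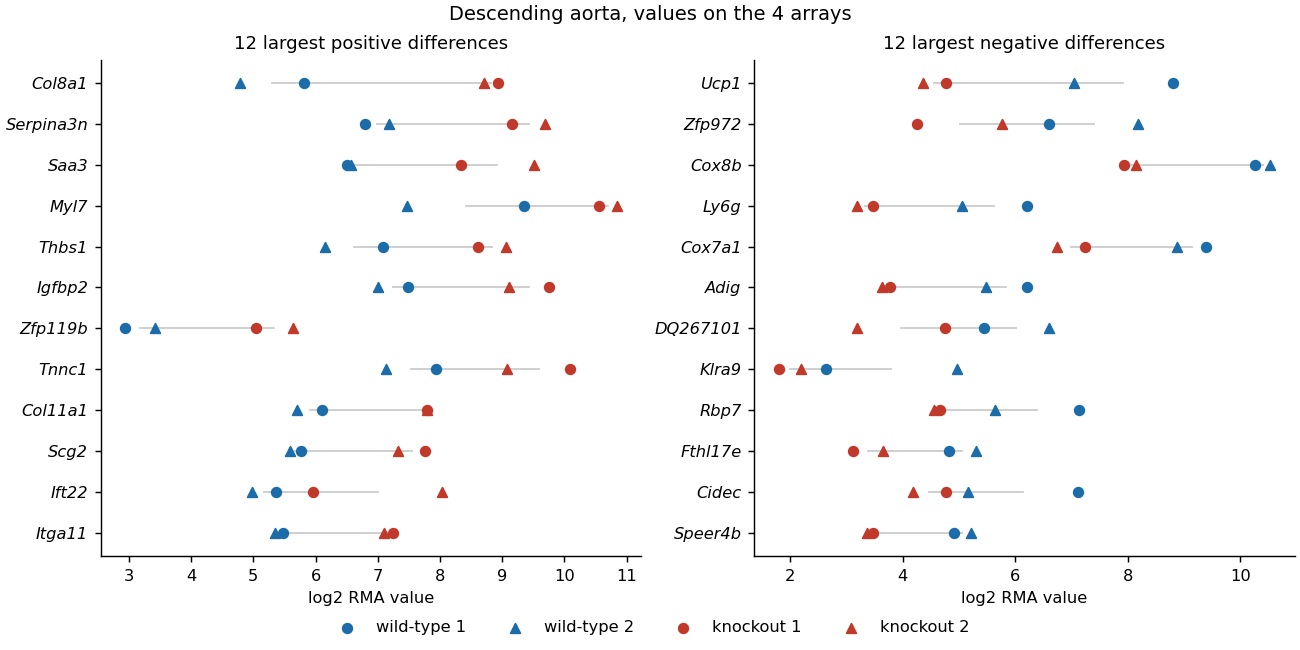
Log2 RMA values (horizontal axis) on the 4 descending aorta arrays for the 12 genes with the largest positive (left) and negative (right) differences among genes with an unadjusted p under 0.05 and groups that do not overlap. Predicted, small RNA, olfactory and vomeronasal genes were left out. Each point is 1 array, blue for wild-type and red for knockout, and grey lines join the group means; Col8a1 stands at 5.82 and 4.78 against 8.94 and 8.71, and Ucp1 at 8.80 and 7.04 against 4.78 and 4.36.

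The elastin gene and its partner fibulin-5 showed small differences. The 95% confidence interval of the Eln difference ran from -0.41 to 0.67 around 0.13, and that of Fbln5, a fibulin that tethers elastin to the cell surface, from -0.24 to 0.91 around 0.33. Among 19 measured elastic fibre and microfibril genes 3 had an unadjusted p under 0.05, all higher in the knockout (4, 2, 2 and 3 with single arrays left out). Fbn2, the fibrillin of developing microfibrils, had 6.87 and 6.36 in wild-type and 8.41 and 8.34 in knockout aorta (log2 difference 1.75, SE 0.26, limma adjusted p = 0.244). The other 2 encode latent TGF-beta binding proteins: Ltbp2, which had 8.26 and 8.04 in wild-type and 9.46 and 9.36 in knockout aorta (1.26, SE 0.25), and Ltbp1, with a difference of 0.67 (SE 0.25). All 19 lay above 0, against 53.7% of all genes and 76.5% in the brightest of the 5 groups of genes. The list median was 0.35, against 0.03 over all genes, and 0.29 without wild-type replicate 2.

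Lysyl oxidases, which cross-link elastin and collagen, and the proteases that activate them or mature procollagen had 4 of 8 measured genes with an unadjusted p under 0.05, all higher (4, 1, 2 and 1 with single arrays left out). The count thus fell to 1 without wild-type replicate 2 and without knockout replicate 2. Over all genes 3.63% were higher at that threshold. Lox, the main enzyme of the aorta, had 10.6 and 10.1 in wild-type and 11.1 and 11.2 in knockout aorta (0.83, SE 0.27). Loxl3 had 6.79 and 5.89 in wild-type and 7.40 and 7.52 in knockout aorta (1.12, SE 0.36). The procollagen C-proteinase gene Bmp1 (0.70, SE 0.25) and its enhancer Pcolce (0.75, SE 0.24) had differences of similar size, and Loxl1, which acts on elastic fibres, stood at 0.38 (SE 0.25). The 3 genes of the list below 0 had knockout values below both wild-type values, as in 15.8% of all genes. The list median was 0.54, and 0.40 without wild-type replicate 2.

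The enzymes and chaperones that modify procollagen in the endoplasmic reticulum gave the highest median of the 44 lists. All 18 measured genes lay above 0 (against 53.7% of all genes and 76.5% in the brightest of the 5 groups of genes). Of them 8 had an unadjusted p under 0.05, all higher (against 3.63% of all genes and 8.79% in the brightest group). The list median was 0.70, and 0.53 without wild-type replicate 2. With single arrays left out 7, 4, 4 and 6 passed. The 8 included the prolyl hydroxylases P4ha3 (1.06, SE 0.25), P4ha1 (0.94, SE 0.31) and P4ha2 (0.75), and the lysyl hydroxylases Plod2 (1.29, SE 0.32) and Plod1 (0.95). P4ha3 had 7.01 and 6.65 in wild-type and 7.87 and 7.91 in knockout aorta. The collagen chaperone gene Serpinh1 had 8.12 and 7.82 in wild-type and 9.14 and 8.71 in knockout aorta (0.95, SE 0.27), and the collagen galactosyltransferase gene Colgalt1 had 7.92 and 7.29 against 8.55 and 8.44 (0.89, SE 0.28). In 14 of the 18 genes both knockout arrays lay above both wild-type arrays, as in 21.6% of all genes. The summed linear level of the list was 7127 to 7874 in wild-type and 8926 to 9734 in knockout aorta.

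The fibrillar collagen gene Col11a1, a minor component that nucleates fibrils, had 6.11 and 5.70 in wild-type and 7.79 on both knockout arrays (1.89, SE 0.26, limma adjusted p = 0.193), and was the only 1 of 11 fibrillar collagens with an unadjusted p under 0.05 (2, 1, 1 and 1 with single arrays left out). The major chains had smaller values, with Col1a1 at 0.53 (SE 0.24) and Col3a1 at 0.19 (95% confidence interval -0.34 to 0.72). Of 18 other collagens, 3 were higher at an unadjusted p under 0.05 (2, 2, 2 and 2 with single arrays left out): Col8a1, the fibril-associated Col12a1 (8.31 and 8.05 in wild-type, 9.58 and 9.39 in knockout, 1.31, SE 0.25) and Col6a2 (0.62, SE 0.27). The list medians were 0.20 and 0.25. Basement membrane genes had 6 of 17 higher at that threshold (against 3.63% of all genes). These were the nidogens Nid1 (0.87) and Nid2 (0.82), which link laminin to collagen IV, the perlecan gene Hspg2 (0.70), Col4a1 (0.74), Col4a2 (0.83) and the laminin chain Lamb1 (0.59). Their median of 0.54 was 0.29 without wild-type replicate 2, and the count of genes past the threshold was 6, 0, 0 and 2 with single arrays left out.

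Matricellular proteins, which sit in the matrix and signal to cells rather than build fibres, had 8 of 21 genes higher at an unadjusted p under 0.05 (7, 3, 6 and 4 with single arrays left out; median 0.51, and 0.41 without wild-type replicate 2). The share of all genes higher at that threshold was 3.63%, and 8.79% in the brightest of the 5 groups of genes. Thbs1, thrombospondin 1, which binds and activates latent TGF-beta, had 7.08 and 6.15 in wild-type and 8.61 and 9.06 in knockout aorta (2.22, SE 0.36, limma adjusted p = 0.245). Thbs2 (0.87) and Thbs4 (0.79) were among the 8, as were the calcium-binding Smoc1 (1.15, SE 0.27) and Smoc2 (1.12, SE 0.32). The connective tissue growth factor gene Ccn2 had 9.68 and 9.47 in wild-type and 10.4 and 11.3 in knockout aorta (1.24, SE 0.35). A second, dimmer probe set of Ccn2 had a difference of 0.19 with overlapping groups, so the probe sets of this gene disagreed. The group of proteoglycans had 4 genes higher and 1 lower of 23: Acan, the large aggregating proteoglycan (8.31 and 8.02 in wild-type, 9.48 and 9.15 in knockout, 1.15, SE 0.26), the collagen-binding Fmod (1.53, SE 0.44), Prelp (1.02) and Cspg4 (0.73), against the hyaluronan synthase Has1 (-0.84, SE 0.27). The higher genes numbered 5, 2, 1 and 3, and the lower ones 0, 1, 1 and 0, with single arrays left out. The proteoglycan median was 0.10 and, without wild-type replicate 2, 0.00 with the opposite sign. A second, dimmer probe set of Prelp had a difference of 0.58, against 1.02 for the one used.

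Among integrins, the cell surface receptors for these proteins, and fibronectin, 7 of 22 genes were higher at an unadjusted p under 0.05 (6, 4, 3 and 5 with single arrays left out; list median 0.40, and 0.25 without wild-type replicate 2). Itga11, the subunit of a receptor for fibrillar collagen, had 5.48 and 5.34 in wild-type and 7.24 and 7.10 in knockout aorta (1.76, SE 0.35). Itgbl1, an integrin-like secreted protein, had 7.04 and 6.62 against 8.07 and 8.56 (1.48, SE 0.29). Itga5 (0.93), the fibronectin receptor subunit, Itga2 (0.86), Itgav (0.84), Itgb5 (0.73) and the fibronectin gene Fn1 (0.74) made up the rest. In each of these named genes both knockout values lay above both wild-type values. Over all genes 21.6% stood so, and 3.63% were higher at an unadjusted p under 0.05.

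Of 28 ligands, receptors and Smads of the TGF-beta and BMP pathway only Tgfb3 passed an unadjusted p under 0.05, with 8.19 and 7.95 in wild-type and 8.66 and 8.88 in knockout aorta (0.70, SE 0.25), while Tgfb1 stood at 0.44 (SE 0.33) and Tgfb2 at 0.45 (SE 0.31). A count of 1 of 28 is near the 3.63% of all genes that were higher at that threshold, and it was 3, 0, 1 and 0 with single arrays left out. The median of 0.36 was 0.17 without wild-type replicate 2. Of 18 target genes 4 passed (6, 3, 3 and 2 with single arrays left out), Thbs1, Ltbp2, Ccn2 and Fn1, all matrix genes that stand in other lists too, and the median of 0.29 was 0.11 without that array.

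Among contractile genes of smooth muscle, Acta2 differed by -0.02 (95% confidence interval -0.54 to 0.51), the smooth muscle myosin gene Myh11 by -0.06 (-0.62 to 0.50), and Tagln and Cnn1 by 0.20 each. The intervals of Acta2 and Myh11 thus left out a doubling or a halving of the linear level. Of 24 genes 3 passed an unadjusted p under 0.05: the actin-binding Lmod1 (0.90, SE 0.28), Smtn (0.59) and the transcription factor Srf (0.56). With single arrays left out 1, 0, 1 and 0 passed. The desmin gene Des had 6.11 and 6.37 against 6.93 and 6.83 (0.64, SE 0.36) and did not pass. A second, dimmer probe set of Smtn had a difference of 0.29, against 0.59 for the one used. The list median was 0.21, and 0.16 without wild-type replicate 2.

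Genes that respond early to stretch and growth factors had the second highest median, 0.61. An unadjusted p under 0.05 was reached by 7 of 25, all higher (against 3.63% of all genes). Ankrd1, a stretch-induced ankyrin repeat protein whose upstream window held GGAATG at 2 places and no CArG box, had 5.67 and 4.85 in wild-type and 6.45 and 7.58 in knockout aorta (1.76, SE 0.50). Ccn1, a target of the same mechanical signals, had 8.61 and 8.06 against 8.96 and 10.3 (1.28, SE 0.45). In both genes knockout replicate 2 was more than 1 log2 unit above knockout replicate 1, and the summed linear level of the list was 4677 and 7108 on those arrays against 3690 and 2647 in wild-type aorta. Errfi1, a feedback inhibitor of the EGF receptor, was tighter, with 6.85 and 7.22 in wild-type and 8.38 and 8.47 in knockout aorta (1.39, SE 0.26). Egr1, an immediate early transcription factor, had 7.56 and 6.24 against 7.32 and 7.70, overlapping groups with a difference of 0.61 (SE 0.52). Without wild-type replicate 2 the list median was 0.37 and 2 of its genes were higher at that threshold and 1 lower. The count of higher genes was 10, 2, 7 and 1 with single arrays left out.

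Adm, the vasodilator peptide adrenomedullin, had 5.40 and 5.29 in wild-type and 6.92 and 7.26 in knockout aorta (1.74, SE 0.34), and the natriuretic peptide clearance receptor gene Npr3 had 5.28 and 5.69 against 6.19 and 6.85 (1.04, SE 0.30). The other 20 measured genes of vasoactive peptides and nitric oxide did not pass an unadjusted p under 0.05, and the 2 became 3, 2, 2 and 1 with single arrays left out. Of 10 renin-angiotensin genes 2 were higher and 1 lower at that threshold. Ace, the converting enzyme, had 8.99 and 8.91 against 9.61 and 9.42 (0.56, SE 0.24), the aminopeptidase gene Anpep had 8.45 and 8.19 against 9.07 and 8.91 (0.67, SE 0.29), and the angiotensinogen gene Agt stood at -0.20 (SE 0.23). Mme, neprilysin, which degrades vasoactive peptides, had 5.78 and 4.81 in wild-type and 4.23 and 3.87 in knockout aorta (-1.24, SE 0.34). Neither Ace nor Anpep passed when any 1 of the 4 arrays was left out, while Mme passed in each of these cases. Of 35 growth factors and receptors 6 were higher and 1 lower at that threshold, led by Igfbp2, the lymphatic growth factor Vegfd (8.72 and 8.24 against 9.72 and 9.73, 1.25, SE 0.26), Igfbp3 (1.10, SE 0.24) and the mural cell receptor Pdgfrb (0.99, SE 0.24). Nrg1 was the lower gene (-0.61). The higher growth factor genes numbered 10, 5, 4 and 5, and the lower ones 0, 0, 2 and 0, with single arrays left out.

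The metallothioneins Mt1 and Mt2, small proteins that bind zinc and copper, were both higher at an unadjusted p under 0.05. Mt2 had 10.5 and 10.6 in wild-type and 12.1 on both knockout arrays (1.59, SE 0.27, limma adjusted p = 0.245), and its neighbour Mt1 had 10.2 and 10.4 against 11.2 and 11.0 (0.81, SE 0.26). The upstream window of Mt2 held 3 metal response cores and that of Mt1 held 1. Not in capitals are 1 AP-1 sequence in the Mt2 window and 1 hypoxia response core (ACGTG) in that of Mt1. Of all windows 21.4% held a metal response core and 16.6% the hypoxia response core. With Gpx3 (0.90), Cybb (0.75) and Gclc (0.56) these were the 5 of 21 metallothionein and oxidative stress genes with an unadjusted p under 0.05 (9, 2, 2 and 4 with single arrays left out). The median of 0.50 was 0.20 without wild-type replicate 2. Hypoxia and glycolysis genes numbered 24, of which 5 were higher at that threshold (5, 4, 4 and 2 with single arrays left out): Adm, the prolyl hydroxylase Egln3 that marks HIF for degradation (4.53 and 5.15 against 5.98 and 6.67, 1.48, SE 0.33), the glucose transporter Slc2a1 (1.16, SE 0.32), P4ha1 and Pgk1 (0.55). That median was 0.35, and 0.28 without wild-type replicate 2. A second, dimmer probe set of Slc2a1 had a difference of 0.42, against 1.16 for the one used. In the unfolded protein response 2 of 23 were higher (3, 1, 0 and 1 with single arrays left out, median 0.29) and in cholesterol synthesis 2 of 18 (3, 0, 0 and 1 with single arrays left out, median 0.24).

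Of 34 cell cycle genes 31 lay above 0 (against 53.7% of all genes and 76.5% in the brightest of the 5 groups of genes). An unadjusted p under 0.05 was reached by 5, all higher (against 3.63% of all genes and 8.79% in the brightest group). The 5 became 13, 1, 3 and 4 with single arrays left out, the most without wild-type replicate 1 and the fewest without wild-type replicate 2. Birc5, survivin, which acts in chromosome segregation, had 6.31 and 6.14 in wild-type and 7.48 and 7.49 in knockout aorta (1.26, SE 0.27). The mitotic kinase genes Cdk1 (8.03 and 6.93 against 8.67 and 8.58, 1.15, SE 0.38) and Plk1 (0.90, SE 0.32) and the cyclin Ccnb2 (0.87) had lower values in wild-type replicate 2 than in replicate 1. The median of 0.49 was 0.22 without that array. In the circadian list 3 of 17 passed (4, 2, 2 and 3 higher with single arrays left out, and 1 lower without wild-type replicate 2): the activators Arntl (4.62 and 4.52 against 5.98 and 5.68, 1.26, SE 0.28) and Npas2 (0.94, SE 0.31) and the repressor Per1 (7.53 and 7.29 against 8.52 and 8.35, 1.03, SE 0.26). The time of day of dissection is not given in the sources used here, and its part in these values was not tested.

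The lists of genes above were set beside markers of other cells that a dissected descending aorta can hold. In pooled tissue fewer cells of a type and less RNA per cell cannot be told apart. The widest shift below 0 of the 44 lists was that of brown and white adipocyte markers: 21 of 23 genes lay below 0, 7 had an unadjusted p under 0.05, all lower (against 2.32% of all genes), and the median was -0.54, and -0.79 without wild-type replicate 2. The lower genes numbered 5, 13, 6 and 6 with single arrays left out. Ucp1, the uncoupling protein that produces heat in brown fat, had 8.80 and 7.04 in wild-type and 4.78 and 4.36 in knockout aorta (-3.35, SE 0.50, limma adjusted p = 0.244), 10.2-fold lower. The knockout values lay below the median gene of their arrays. The mitochondrial genes Cox8b (10.3 and 10.5 against 7.94 and 8.16, -2.35, SE 0.52) and Cox7a1 (9.40 and 8.88 against 7.24 and 6.75, -2.14, SE 0.57), both muscle and brown fat forms of cytochrome oxidase subunits, did not overlap either.

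Lipid droplet and hormone genes of fat were lower at that threshold too, Cidea (7.31 and 6.24 against 5.13 and 5.29, -1.56), Cidec (-1.66) and the adiponectin gene Adipoq (7.83 and 7.10 against 6.09 and 6.42, -1.21). So was Pck1, a list gene of another kind (6.70 and 7.04 against 5.11 and 5.63, -1.504). Adig, adipogenin, and Rbp7, a retinol-binding protein of fat tissue, were not in the list but were among the 12 largest negative differences, Rbp7 with -1.77 (SE 0.52) and Adig with -2.14 (SE 0.37). Other members had overlapping groups: the transcription factors Pparg (7.09 and 5.54 against 5.70 and 5.81), Ppargc1a (-0.08) and Prdm16 (0.19), and Elovl3, Dio2 and Lep, which lay below the median gene on all 4 arrays. In several genes wild-type replicate 1 was the high array, and the summed linear level of the list was 9124 and 7049 in wild-type and 4292 and 4515 in knockout aorta. The list median was -0.26 without wild-type replicate 1.

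Markers of heart muscle mostly lay above 0, with 8 of 24 higher at an unadjusted p under 0.05 (against 3.63% of all genes). Their median was 0.58, or 0.37 without wild-type replicate 2. With single arrays left out 10, 4, 6 and 6 passed. The atrial myosin light chain gene Myl7 had 9.35 and 7.48 in wild-type and 10.6 and 10.8 in knockout aorta (2.28, SE 0.63), the troponin gene Tnnc1 7.94 and 7.14 against 10.1 and 9.08 (2.05, SE 0.41), Tnnt2 8.72 and 7.51 against 9.65 and 9.68 (1.55, SE 0.36) and Myh6 6.25 and 5.63 against 7.58 and 7.12 (1.41, SE 0.37). Titin (Ttn, 1.24), Csrp3 (1.32), Tnni3 (0.98) and Myoz2 (0.90) completed the 8. The ventricular light chain gene Myl2 had 5.99 and 5.82 against 5.90 and 5.82, and the cardiac transcription factors Nkx2-5 (-0.12) and Gata4 (-0.08) and the peptide gene Nppa (-0.14) did not pass. The summed linear level of the list was 3135 and 1686 in wild-type and 5775 and 5486 in knockout aorta, with the lowest value in wild-type replicate 2. Skeletal muscle markers had 1 of 26 past the threshold, Ckm (6.97 and 5.67 against 7.32 and 7.58, 1.13, SE 0.42), with a median of 0.29 (1, 1, 2 and 0 with single arrays left out).

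Neural and sympathetic markers had 7 of 18 genes higher at an unadjusted p under 0.05 (against 3.63% of all genes), and their median was 0.39. The count was 3, 5, 3 and 6, and the median 0.27, 0.51, 0.37 and 0.38, with single arrays left out, and 1 gene was lower without wild-type replicate 2. The 7 genes were Prph, an intermediate filament of peripheral neurons (4.35 and 3.999 against 5.25 and 4.98, 0.94, SE 0.26), the neuropeptide Npy (6.19 and 6.16 against 6.86 and 7.34, 0.92, SE 0.29), Dbh, which makes noradrenaline (4.06 and 4.93 against 5.04 and 6.14, 1.09, SE 0.40), Hand2 (0.73), Gap43 (0.79), Tubb3 (0.96) and Stmn2 (0.64). By their mean over the arrays Prph, Dbh and Tubb3 lay below the median gene, and the other 4 lay above it. Th, the rate-limiting enzyme of catecholamine synthesis, had 5.01 and 5.33 against 5.61 and 5.58 (0.42, SE 0.25), and the vesicle transporter Slc18a2 stood at -0.57 (SE 0.25). Markers of Schwann cells had 0 of 11 past that threshold (median 0.10), but some passed in fits with a single array left out.

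**Figure D3:**
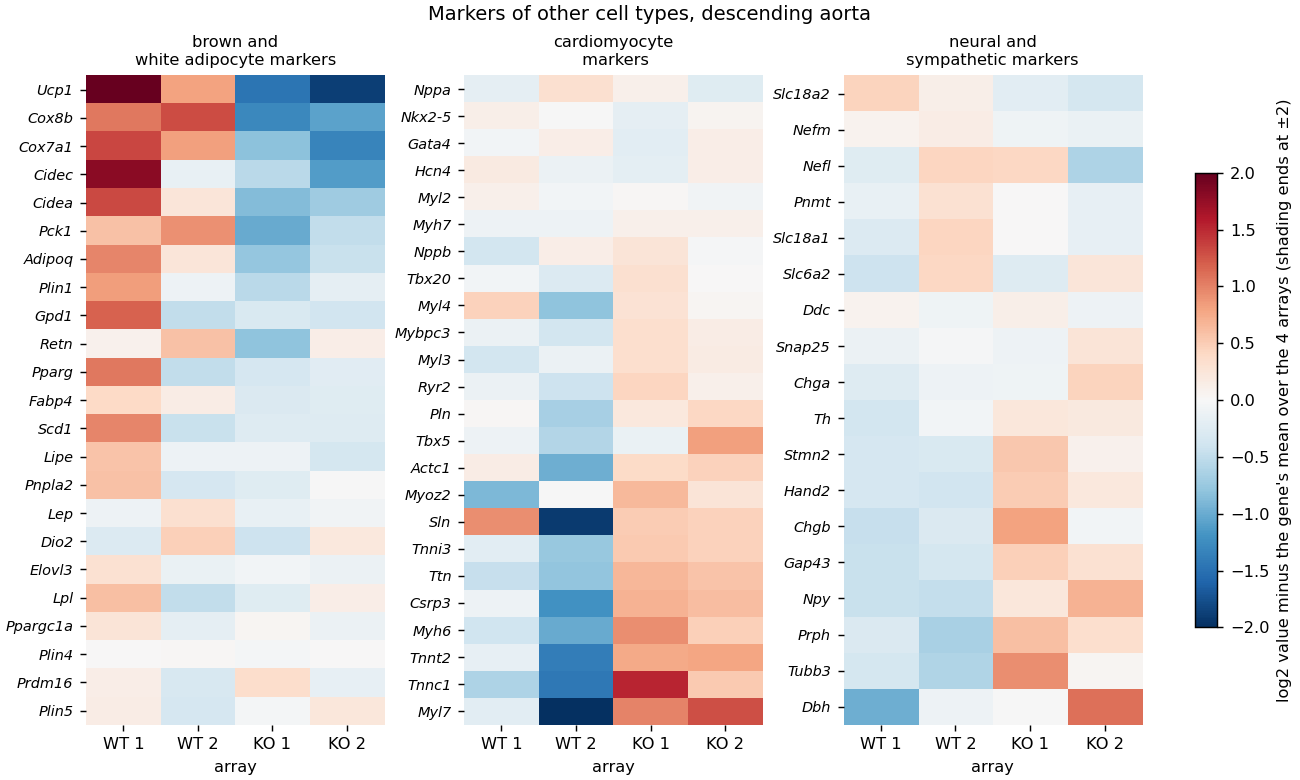
Markers of fat, heart muscle and nerve cells on the 4 descending aorta arrays (columns), 1 gene per row ordered by its difference, coloured by the log2 value minus the gene's mean over the 4 arrays. Ucp1, Cox8b and Cox7a1 are above their mean on both wild-type arrays and below it on both knockout arrays, and Myl7, Tnnc1 and Tnnt2 are lowest in wild-type replicate 2 and highest in the knockout.

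Markers of blood and immune cells were counted likewise. Over all genes 3.63% were higher and 2.32% lower at an unadjusted p under 0.05, and 53.7% had a difference above 0. Of 29 macrophage and myeloid markers 4 were higher at an unadjusted p under 0.05, the lysosomal Cd68 (7.60 and 6.87 against 8.43 and 8.05, 1.00, SE 0.31), Laptm5 (0.95), Spi1 (0.66) and Adgre1 (0.62); the median was 0.36, and 0.19 without knockout replicate 1. The 4 became 3, 1, 0 and 3 with single arrays left out, so none passed without knockout replicate 1. Neutrophil markers went both ways. Ly6g had 6.21 and 5.06 in wild-type and 3.47 and 3.18 in knockout aorta (-2.31, SE 0.36), while S100a8 had 8.55 and 8.47 against 9.44 and 10.6 (1.495, SE 0.61), and Prtn3 (0.89), Lcn2 (0.67) and Mmp9 (0.60) were also higher at that threshold. The higher neutrophil genes numbered 2, 0, 3 and 0, and the lower ones 2, 1, 1 and 1, with single arrays left out. Mast cell markers had 9 of 11 below 0 and none past an unadjusted p under 0.05; Cpa3, the mast cell carboxypeptidase, had 9.74 and 9.09 against 8.83 and 8.83 (-0.58, SE 0.30), and the median of -0.36 was -0.09 without wild-type replicate 1, while 2 mast cell genes were lower at that threshold without wild-type replicate 2. Chemokines had 2 genes higher and 1 lower of 28. The higher ones were Ccl6 (0.67, SE 0.27) and Ccl8 (0.98, SE 0.40), and the lower was Cxcl13, which attracts B cells (9.11 and 9.55 against 8.89 and 8.47, -0.65, SE 0.28). Complement genes had 2 higher of 19, C4b (1.09, SE 0.29) and Cfb (0.68). With single arrays left out the higher chemokines numbered 1, 0, 1 and 1, the lower ones 1, 0, 1 and 0, and the higher complement genes 2, 1, 1 and 1. Lymphocyte markers had 1 gene each way of 16 (0, 0, 0 and 0 higher and 1, 0, 0 and 0 lower with single arrays left out), and erythroid markers had 0 of 7.

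Endothelial markers had 1 of 22 past an unadjusted p under 0.05, Flt1, a VEGF receptor, with 6.51 and 6.12 in wild-type and 7.47 and 7.37 in knockout aorta (1.11, SE 0.28). Their median was 0.13, and -0.05 without wild-type replicate 2, and 3, 1, 1 and 1 were higher with single arrays left out. Fibroblast and adventitial markers had 2 of 13 (Dpep1, 0.78, and Pi16, 1.02) and a median of 0.27 (2, 1, 0 and 1 with single arrays left out). Mesothelial and epicardial markers had 2 of 15, with the transcription factor gene Tcf21 at 4.72 and 4.51 against 5.67 and 5.64 (1.04, SE 0.32), which became 2, 1, 1 and 2 with single arrays left out, and cartilage and bone markers 2 higher and 2 lower of 15, the higher ones being Acan and Chad (0.72) and the lower ones Matn1 (-0.73) and Ibsp (-0.75). The higher cartilage genes numbered 1, 2, 1 and 2, and the lower ones 0, 1, 1 and 1, with single arrays left out. Epithelial markers, Notch pathway genes and Hox genes had none past the threshold, of 16, 18 and 28. Each of these lists had genes past it in some fits with a single array left out. The shifts of these cell types and those of matrix, load and proliferation genes were measured in the same 4 pools, and the part of one in the other was not tested.

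**Figure D4:**
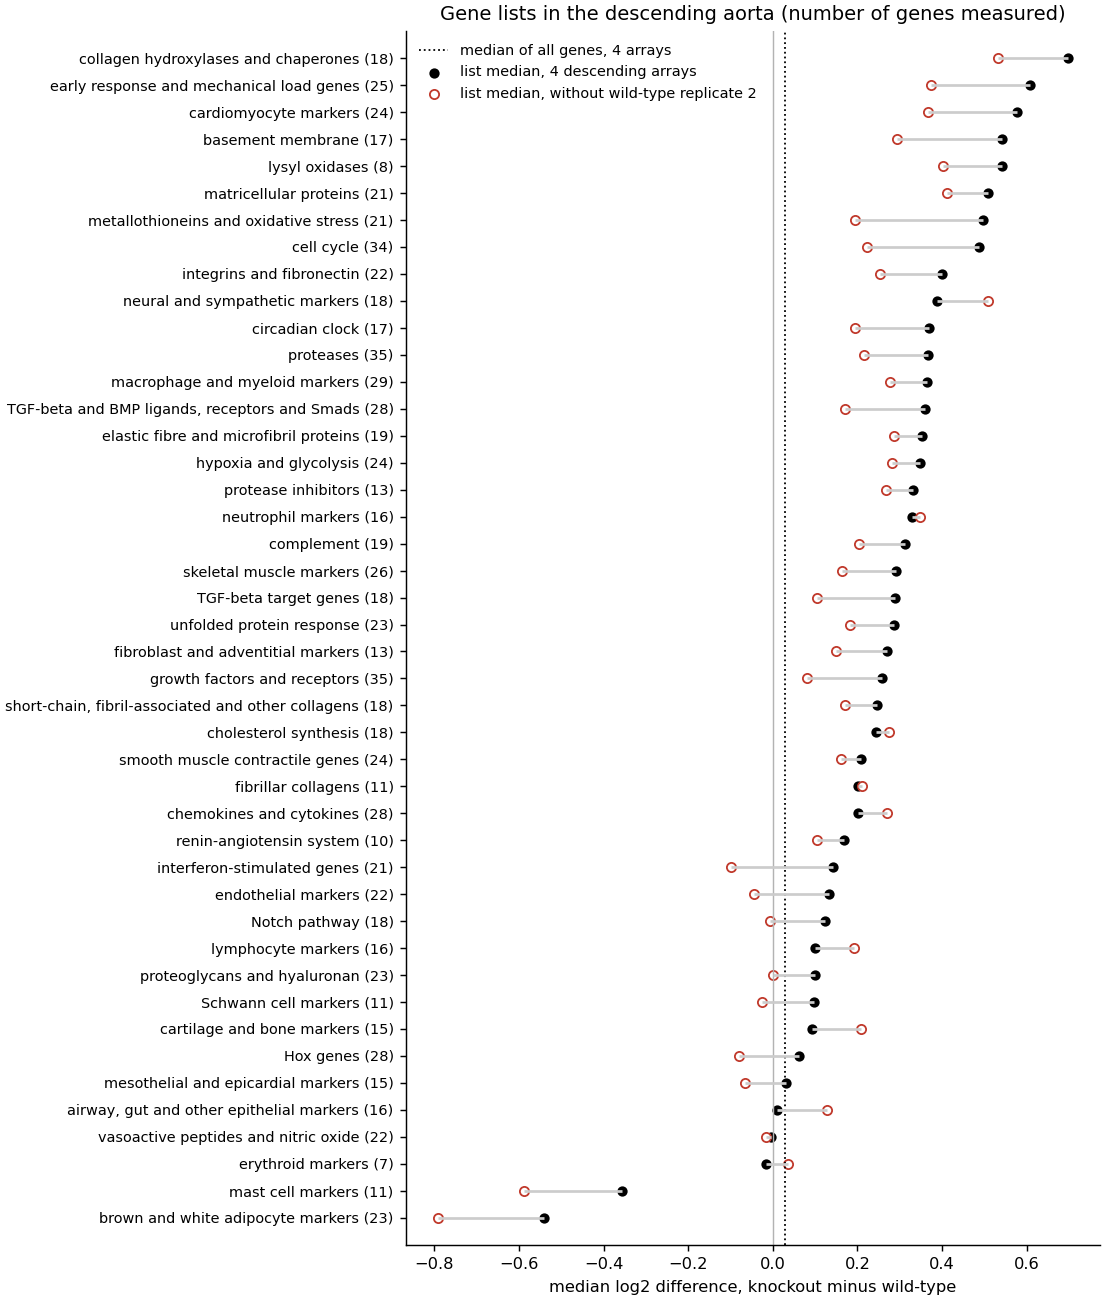
Median log2 difference between knockout and wild-type descending aorta (horizontal axis) of 44 gene lists, filled points with all 4 descending arrays and open red points without wild-type replicate 2; the dotted line is the median of all genes, 0.03. Collagen hydroxylases and chaperones stand highest at 0.70 and 0.53, and adipocyte markers lowest at -0.54 and -0.79.

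Protease genes had 6 of 35 higher at an unadjusted p under 0.05, with a median of 0.37, and 0.21 without wild-type replicate 2, and 8, 0, 0 and 3 were higher with single arrays left out. The secreted metalloprotease gene Adamts1 (7.80 and 7.27 against 8.48 and 8.29, 0.85, SE 0.28) and the lysosomal proteases Ctsd (0.84, SE 0.30) and Ctss (0.67, SE 0.28) had the smallest p next to Mmp9. Over all genes 3.63% were higher at an unadjusted p under 0.05, and 8.79% in the brightest of the 5 groups of genes. Among 13 protease inhibitors, Serpina3n, the protease- and TGF-beta-binding surface protein Cd109 (4.67 and 4.31 against 6.12 and 5.80, 1.47, SE 0.32) and Timp1, an inhibitor of matrix metalloproteases (8.48 and 8.30 against 9.26 and 9.10, 0.79, SE 0.33), passed (2, 2, 2 and 3 higher with single arrays left out). The interferon-stimulated genes had 1 of 21, Irf7 (0.63) (3, 0, 0 and 1 with single arrays left out), and their median of 0.14 was -0.10 without wild-type replicate 2.

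The difference in the descending aorta was then set against that in the ascending aorta, which was measured on 4 other arrays. At an unadjusted p under 0.05, 5.31% of genes were higher and 3.6% lower in the knockout ascending aorta, and 0.0% were called there. No gene (0.0%) had a limma adjusted p under 0.05 for the difference of the effects, and the smallest was 0.523. At an unadjusted p under 0.05 the descending effect was more positive in 373 genes (1.68%) and more negative in 360 (1.62%). Col8a1 had 5.04 and 5.15 in wild-type and 8.22 and 8.65 in knockout ascending aorta (descending minus ascending effect 0.18, SE 0.50). Of the 12 largest positive differences 9, and of the 12 largest negative ones 6, also had groups that did not overlap in the same direction in the ascending aorta, where 21.5% of all genes had both knockout arrays above and 18.3% both below the wild-type arrays. Ucp1 was lower in wild-type ascending aorta, at 5.37 and 4.75, than in wild-type descending aorta, and the difference of its effects was -2.61 (SE 0.70).

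With predicted, small RNA, olfactory and vomeronasal genes left out, the 5 genes with the smallest p in each direction of that comparison were Zfp119b, Crisp3, Ckm, Magea6 and Ahcy, more positive in the descending aorta, and DQ267101, Cxcl13, Scgb2b24, Ereg and Msr1, more negative. Ckm, the muscle creatine kinase, differed by 1.13 in the descending and -2.12 in the ascending aorta. Cxcl13 differed by -0.65 and 1.34, and the scavenger receptor gene Msr1 of macrophages by -0.38 and 1.42. A second probe set of Ahcy had a descending difference of 0.26 against 1.34 for the one used, and a second one of Ereg 0.30 against -0.42, so those probe sets disagreed.

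**Figure D5:**
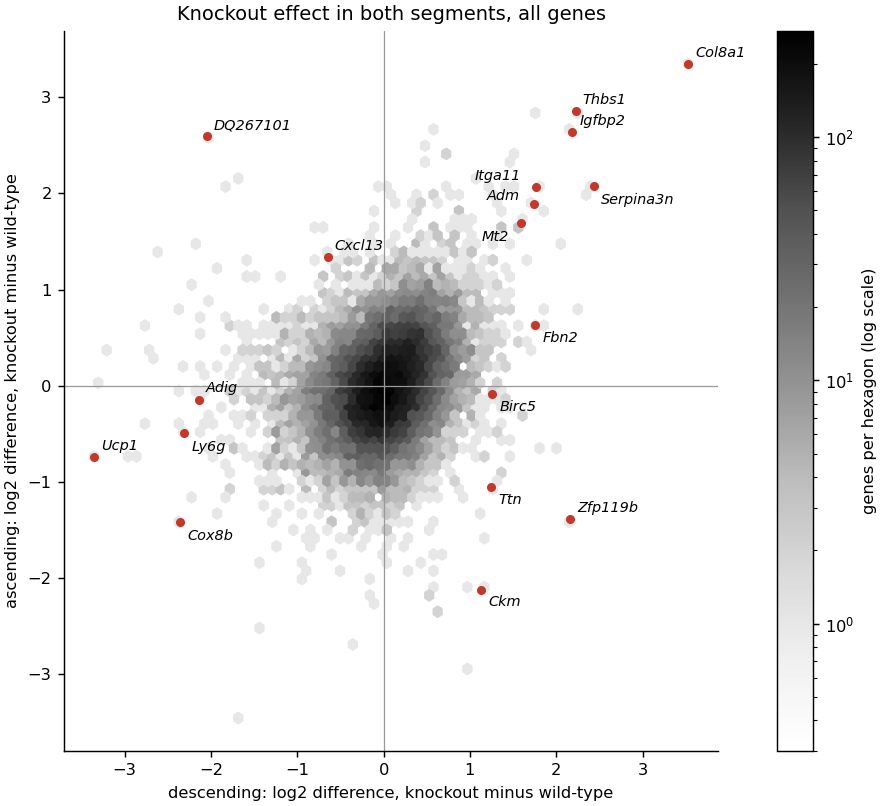
Log2 difference between knockout and wild-type in the descending (horizontal axis) and ascending aorta (vertical axis) for all 22180 genes, as hexagons shaded by the number of genes on a log scale, with named genes as red points. Col8a1, Thbs1, Igfbp2 and Serpina3n lie at the upper right, Ucp1 and Adig at the left near the horizontal axis, and Ckm and Ttn at the lower right.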

How the data were processed

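From each pool of aortic segments 5 ng of RNA was amplified, biotin-labelled and put on an array, as the labels' protocols say. The deposited table holds log2 values of 41345 probe sets that the authors made by RMA in Affymetrix Expression Console (per the submitters' processing notes). RMA compresses differences of dim probes.

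Probe sets with 1 symbol in the platform annotation were used (23521, while 1814 had several and 16010 none there). For each gene the brightest probe set by its mean on the 8 arrays was used, which left 22180 genes. All 8 arrays entered 1 limma model (limma 3.58.1, R 4.3.3) with 4 group means, so that groups share the spread (residual df 4, prior df 5.52), and p-values were adjusted by the Benjamini-Hochberg method over all genes. Called means an adjusted p under 0.05. The labels call the pools biological replicates. The number of arrays limits the precision, with a median standard error of 0.30. An exact two-sided permutation test of 2 against 2 cannot go below p = 0.333.

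The members, the 44 gene lists (881 of 945 entries measured) and the choices of genes were made with earlier results of these data known, and lists are described without a test. Chosen for naming were called genes and the 12 largest differences each way among genes with an unadjusted p under 0.05 and groups that do not overlap. Also chosen were the 4 smallest p per list, 21 vessel wall genes, sex-linked genes and 5 genes each way for the difference between segments. Predicted, small RNA, olfactory and vomeronasal genes were left out of both rankings. Not all chosen genes appear in the text, and Fbn1, a vessel wall gene, had no row among the genes tested. Others were named after their values were seen. Alternatives were array weights, limma's trend and robust options, centring, quantile normalization, filters, probe set rules, a replicate block and leaving out arrays. Plots were made in Python 3.11.15 (matplotlib 3.10.9).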

Additional observations from a re-analysis of the deposited data

How the results depend on the processing

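The call of Col8a1, the counts at an unadjusted p under 0.05 and several list medians moved with the settings. With 1 gene called by limma as described, 2 were called with array weights, 4 with limma's trend and robust options (Col8a1, Serpina3n, Mt2 and Olfr507), 2 without the dimmest 25% of genes, 2 at an adjusted p under 0.1 and 7 without both wild-type replicate 2 arrays. There were 0 after median centring, after quantile normalization, with only the descending arrays, with the replicate number as a block and with all rows of the table (990 higher and 1070 lower at an unadjusted p under 0.05). The replicate block gave Col8a1 an adjusted p of 0.0865; the numbers do not pair the pools in the labels, and the replicate differences of both genotypes correlated at 0.116 across genes in the descending aorta. Between other groups the correlation ran from -0.0778 to 0.292, the highest between the wild-type ascending and descending arrays, whose replicate 2 had the narrowest spreads of the 8 (interquartile ranges 1.80 and 1.74). Leaving out single arrays gave 0 to 2 called genes; Col8a1 held without wild-type descending replicate 1 (0.0356), was lost without wild-type descending replicate 2 (0.0792, with Ucp1 and Olfr802 called instead), and was also lost when any ascending array or either knockout descending array was left out, with adjusted p from 0.0501 to 0.358. At an unadjusted p under 0.05, leaving out single arrays gave 365 to 1564 higher and 292 to 1139 lower genes, the lowest count of higher genes without wild-type descending replicate 2 and the highest without replicate 1. Lower genes numbered 301 with median centring and 275 without the dimmest 25% of genes. The difference between segments stayed at 0 called genes in the alternatives run for it. Of the 44 list medians, 8 changed sign without wild-type descending replicate 2, 4 without replicate 1, 3 without the first and 1 without the second knockout descending array. Median centring moved the median of all genes from 0.03 to 0.14 and turned 2 list medians, and quantile normalization turned 1. The cause of these changes was not tested.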

Other observations

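The olfactory receptor gene Olfr507, left out of the ranking by its family, had 6.16 and 5.49 in wild-type and 2.99 and 2.90 in knockout descending aorta, a log2 difference of -2.88 with a limma adjusted p of 0.0838, the second smallest of all genes. Its adjusted p was 0.0343 with array weights and 0.0388 with the trend and robust options. In the ascending aorta its difference was -0.70 (SE 0.33), and the descending minus ascending effect was -2.19.

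The clone-named gene DQ267101 had 5.44 and 6.60 in wild-type and 4.75 and 3.19 in knockout descending aorta, and a difference of 2.59 in the ascending aorta. A second probe set of it had a descending difference of -0.47, and its groups overlapped.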
